A study of Mus musculus with 24 samples.

Results

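Transcript levels of 10 genes for glycoproteins and other proteins of the lysosomal membrane and for the exporters of lysosomal cholesterol were measured in MEFs (mouse embryonic fibroblasts) with and without TFEB and TFE3, transcription factors that drive lysosomal genes. The genes are *Lamp1*, *Lamp2*, *Cd63*, *Cd68*, *Scarb2*, *Npc1*, *Npc2*, *Gpnmb*, *Laptm4a* and *Laptm4b*. They were taken by name from the deposited gene table, which lists 55487 genes, and all 10 were found and passed the filter on low counts. mRNA was sequenced from WT MEFs and from *tfeb tfe3* double-knockout (DKO) MEFs, spelled Tfeb/Tfe3 KO in the sample labels. Both genotypes received DMSO (vehicle), torin1 (Torin-1 in the labels), a catalytic inhibitor of MTOR, or MK-8722 (MK8722 in the labels), a direct activator of AMPK. This gave 6 groups of 4 libraries, or 24 libraries. The 4 libraries of a group came from cultures at different passages, which were 7, 8, 9 and 11 for WT and 8, 9, 10 and 11 for DKO. The labels give a single batch, and WT and DKO cells were separate cultures, so the knockout and any other difference between the cell lines cannot be told apart.

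LAMP1 and LAMP2 are heavily glycosylated proteins that line the lumenal face of the lysosomal membrane, and CD63, CD68 and SCARB2 are further glycoproteins of late endosomes and lysosomes. Cholesterol released in the lysosome is passed from the soluble carrier NPC2 to the membrane protein NPC1, which exports it, and loss of either causes Niemann-Pick disease type C. TFEB and TFE3 bind E-box sequences near the start sites of many lysosomal genes, and they enter the nucleus when MTORC1 at the lysosomal surface is inhibited.

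In WT MEFs, 8 of the 10 genes rose with torin1, where 26.6% of all genes tested rose, and 8 rose with MK-8722, where 10.3% did. The changes ranged from 1.36-fold to 27.9-fold with torin1 and from 1.41-fold to 15.4-fold with MK-8722. *Gpnmb* changed most, and *Laptm4a* was not called in any comparison. In DKO MEFs, 4 genes rose with torin1 (23% of all genes) and 2 with MK-8722 (5.47%). The response of 8 genes to torin1 (6.33% of all genes) and of 7 to MK-8722 (4.08%) was lower in DKO than in WT by the test of the difference. With DMSO alone, DKO MEFs already held more transcripts of *Lamp2*, *Scarb2*, *Cd63*, *Cd68* and *Gpnmb* than WT MEFs, and 0 of the 10 genes were called lower, beside 23.5% of all genes called higher and 24.6% lower.

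Promoter windows of 8 of the 10 genes were examined, from 250 bases before to 50 after the RefSeq start site on GRCm38.p6, and those of *Npc1* and *Laptm4b* were not analysed here. The E-box core CACGTG, which reads the same on both strands, was found in the window of *Lamp1* and of no other of the 8 genes. It stood 4 times there, starting at positions -61, -45, -28 and -15 from the start site. Of all 32851 windows, 7.15% hold CACGTG, and 8 windows (0.0244%) hold it at least 4 times. CATGTG, searched on both strands and with no overlap with CACGTG, was found in 1 window, that of *Scarb2*, where it reads CACATG at position -32, and 14.2% of all windows hold it. The 250 bases before the start site are printed here, 5′ to 3′ on the strand of the gene and with either motif in capitals. They are those of *Lamp1* (chr8:13158911-13159160, plus strand) and *Scarb2* (chr5:92505658-92505907, minus strand), which hold a motif, and of *Gpnmb*, the gene with the largest change (chr6:49036268-49036517, plus strand), which holds neither.
Lamp1: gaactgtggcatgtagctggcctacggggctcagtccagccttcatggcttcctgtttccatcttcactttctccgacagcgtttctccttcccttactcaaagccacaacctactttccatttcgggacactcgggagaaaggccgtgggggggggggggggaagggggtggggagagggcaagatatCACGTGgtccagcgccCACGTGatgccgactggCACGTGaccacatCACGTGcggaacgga
Scarb2: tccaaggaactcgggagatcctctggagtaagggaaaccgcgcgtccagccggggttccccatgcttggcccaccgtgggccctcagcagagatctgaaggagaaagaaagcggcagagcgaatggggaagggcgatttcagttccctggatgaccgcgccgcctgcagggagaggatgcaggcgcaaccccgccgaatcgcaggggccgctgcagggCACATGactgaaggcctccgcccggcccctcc
Gpnmb: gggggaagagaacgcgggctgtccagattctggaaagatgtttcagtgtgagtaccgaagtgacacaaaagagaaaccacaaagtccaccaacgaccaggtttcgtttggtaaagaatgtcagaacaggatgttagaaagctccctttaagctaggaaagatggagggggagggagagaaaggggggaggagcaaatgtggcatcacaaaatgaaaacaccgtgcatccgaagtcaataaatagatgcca
The start site of the window was the start of the most abundant transcript for *Lamp1*, and it lay 20 bases before it for *Scarb2* and 97 bases before it for *Gpnmb*. For *Cd63* and *Laptm4a* it lay 354 and 357 bases before that start, so the windows of *Gpnmb*, *Cd63* and *Laptm4a* do not reach the start of their most abundant transcript. The windows of *Lamp2*, *Cd63*, *Cd68*, *Npc2*, *Gpnmb* and *Laptm4a* held neither motif, which says only that these letters are not in these 300 bases.

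The libraries held 24668900 to 33332600 estimated counts. Their RNA integrity numbers were 9.7 to 9.9, except for DKO MK-8722 replicate 3 at 7.9. *Tfeb* was at 22.9 ± 1.74 CPM (SD, n = 4) in WT and 2.25 ± 0.289 CPM in DKO with DMSO, where CPM are counts scaled to a common library size. This was 10.2-fold lower. *Tfe3* mRNA was not lower, with 120.2 ± 1.17 CPM in WT against 124 ± 2.11 CPM in DKO. A list of 10 fibroblast markers summed to 6189 to 10083 CPM over the libraries, with *Thy1* at 0 in DKO with DMSO and torin1. In DKO the sum was 7748 to 8713 CPM with torin1, above the 6189 to 7144 CPM with DMSO and 6346 to 7093 CPM with MK-8722. The WT groups overlapped. The sum in DKO with torin1 does not stand for a shift of the whole list. Of the 9 fibroblast markers tested there, 3 were called higher and 2 lower against DMSO (all genes: 23% higher, 20.2% lower). Their median log2 fold change was -0.08. In the DMSO, torin1 and MK-8722 libraries, the summed level of 6 epithelial markers was 2.83 to 4.61, 5.68 to 7.49 and 3.81 to 5.24 CPM in WT and 2.99 to 4.87, 9.95 to 14.6 and 5.97 to 11.3 CPM in DKO. It was thus higher with torin1 in both genotypes and with MK-8722 in DKO without overlap, with *Krt5* at 0 in all 3 DKO groups and *Krt14* in DKO with DMSO. All 4 epithelial markers tested had positive log2 fold changes with torin1 in WT and in DKO. With MK-8722 in DKO, 1 of the 4 was positive and called higher (1.01). The other 3 were negative and not called (lowest -1.25), so this sum does not follow the list. The part of these markers' sources in the changes with the drugs was not tested. In bulk RNA, fewer expressing cells and less RNA per cell cannot be told apart.

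Compared per length, as TPM, *Cd63* (549.7 ± 14.4 TPM, SD, n = 4) and *Lamp1* (411 ± 17.2 TPM) were the most abundant of the 10 genes in WT MEFs with DMSO, and their libraries did not overlap. *Laptm4a* (131 ± 14.1 TPM) came next, and its lowest library (118 TPM) lay just below the highest of *Npc2* (121 TPM). *Npc2* (81.5 ± 26.5 TPM) and *Lamp2* (77.1 ± 12.2 TPM) did not differ beyond their spread. *Laptm4b* lay at 28.9 ± 1.31 TPM, and *Npc1* (14.1 ± 1.98 TPM) and *Scarb2* (12.2 ± 2.51 TPM) did not differ beyond their spread. *Cd68* at 2.81 ± 0.517 TPM and *Gpnmb* at 0.552 ± 0.334 TPM were the least abundant. With torin1, *Gpnmb* reached 14.3 ± 4.20 TPM in WT. Further levels are CPM scaled with TMM, which compare a gene with itself across groups, and the values of single libraries are given in order of passage.

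**Figure D1:**
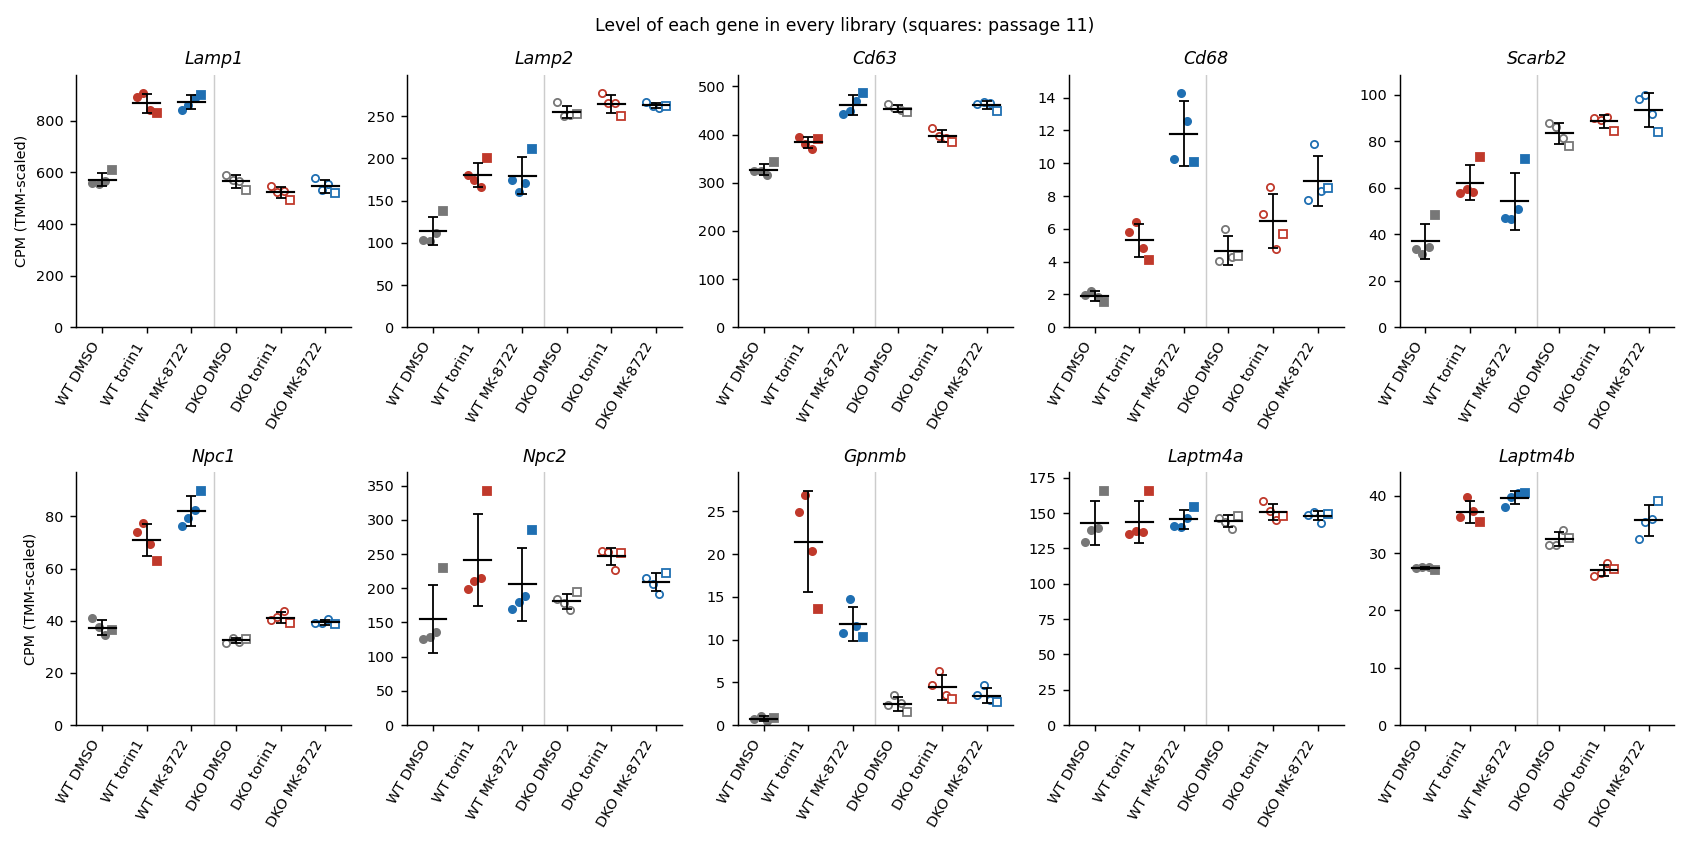
Level of each of the 10 genes (vertical axes, CPM scaled with TMM, starting at 0) in every library of the 6 groups, with filled points for WT, open points for DKO, squares for cultures at passage 11, and black bars for the mean and SD of 4 libraries. *Gpnmb* stands at 13.6 to 27.0 CPM with torin1 in WT against 0.443 to 1.05 CPM with DMSO, while *Laptm4a* has group means of 143 to 151 CPM.

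*Lamp1*, the most used marker of lysosomes (chr8:13159161-13175338, plus strand), stood at 561, 553, 566 and 608 CPM in WT with DMSO. The WT libraries given torin1 held 890.4, 907, 843 and 831 CPM, and those given MK-8722 held 841, 863, 889 and 901 CPM. All treated WT libraries lay above all DMSO libraries. The rise was 1.52-fold with torin1 (log2 fold change 0.60 ± 0.04 SE, adjusted p = 3.37e-11, from the edgeR quasi-likelihood test and the method of Benjamini and Hochberg over all genes, as for each adjusted p by edgeR). With MK-8722 it was 1.53-fold (0.61 ± 0.04, adjusted p = 1.45e-10 by edgeR). In DKO the libraries held 591, 572, 567 and 532 CPM under DMSO, 547, 523, 529 and 494 CPM under torin1 and 577, 533, 557 and 521 CPM under MK-8722. The 3 DKO groups overlapped, and in each of the 4 passages the torin1 culture lay below the DMSO culture, with a log2 fold change of -0.11 ± 0.04 (adjusted p = 0.0272 by edgeR) that missed the fold change of 1.2 needed for a call. With DMSO the genotypes differed by -0.02 on the log2 scale (95% interval -0.10 to 0.07), whereas DKO was 1.66-fold lower with torin1 and 1.60-fold lower with MK-8722. The difference in response, DKO minus WT on the log2 scale, was -0.71 ± 0.06 (adjusted p = 1.57e-08 by edgeR) for torin1 and -0.66 ± 0.06 (adjusted p = 5.18e-08 by edgeR) for MK-8722.

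*Lamp2*, whose protein also takes part in chaperone-mediated autophagy (chrX:38401357-38456454, minus strand), stood at 103, 103, 112 and 137 CPM in WT with DMSO. It was 180.1, 175, 166 and 200.1 CPM in the torin1 libraries of WT and 175, 161, 171 and 212 CPM in the MK-8722 libraries. The treated WT libraries lay above the DMSO libraries, and the highest library of each group was that of passage 11. The gene rose 1.58-fold with torin1 (0.66 ± 0.08, adjusted p = 2.51e-07 by edgeR) and 1.58-fold with MK-8722 (0.66 ± 0.08, adjusted p = 1.52e-06 by edgeR). In DKO the values were 266, 250.03, 251 and 252 CPM under DMSO, 277, 266, 266 and 251 CPM under torin1 and 267, 263, 259.6 and 262 CPM under MK-8722, all above every WT library. *Lamp2* was 2.24-fold higher in DKO than in WT with DMSO (1.16 ± 0.08, adjusted p = 2.44e-11 by edgeR), 1.47-fold higher with torin1 and 1.46-fold higher with MK-8722. Its log2 fold change in DKO was 0.05 (95% interval -0.11 to 0.22) with torin1 and 0.04 (-0.12 to 0.21) with MK-8722. Its difference in response was -0.61 ± 0.11 (adjusted p = 0.000713 by edgeR) for torin1 and -0.61 ± 0.11 (adjusted p = 0.000979 by edgeR) for MK-8722.

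The LAMP2 proteins differ in their membrane-spanning part and cytosolic tail, which alternative last exons encode, and the tail carries a glycine-tyrosine signal that sorts LAMP proteins to the lysosome. The last 36 coding bases, stop codon included, are printed for *Lamp1* and for the 3 *Lamp2* transcripts that made up at least 5% of the gene's TPM, to show what sets the transcripts apart. They come from GENCODE release M21 on GRCm38, with the codons of that glycine and tyrosine in capitals. They lie at chr8:13174523-13174558 on the plus strand for Lamp1-201 and, on the minus strand, at chrX:38405432-38405467, chrX:38421712-38421747 and chrX:38402139-38402174 for Lamp2-201, Lamp2-202 and Lamp2-203.
Lamp1-201: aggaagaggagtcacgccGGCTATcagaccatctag
Lamp2-201: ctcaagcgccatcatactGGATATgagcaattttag
Lamp2-202: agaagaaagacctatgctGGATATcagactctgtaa
Lamp2-203: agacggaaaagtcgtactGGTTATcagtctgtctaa
As the mean of each of the 6 groups, Lamp2-201 made up 60.4% to 62.7% of the gene's TPM, Lamp2-202 29.6% to 32.5% and Lamp2-203 5.60% to 6.74%. The 3 transcripts kept this order in all groups while the mean of the gene ranged from 77.1 to 180.5 TPM. Shares of 22 transcripts of 7 of the genes were compared in 110 exact two-sided permutation tests, and 0 passed after adjustment, with a lowest adjusted p of 0.524. With 4 libraries against 4, the lowest p an exact test can give is 0.0286. An adjusted p under 0.05 therefore needed most of the 110 tests to reach it together. For this reason the adjusted result does not show that the shares stayed the same. The lowest p was reached by 6 of the 110 tests. These were Npc2-201 and Npc2-202 with torin1 in WT and between the genotypes with DMSO, Gpnmb-201 with MK-8722 in WT and Laptm4b-204 with MK-8722 in DKO. Shares of a gene's transcripts depend on each other, so the results of Npc2-201 and Npc2-202 are not separate.

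**Figure D2:**
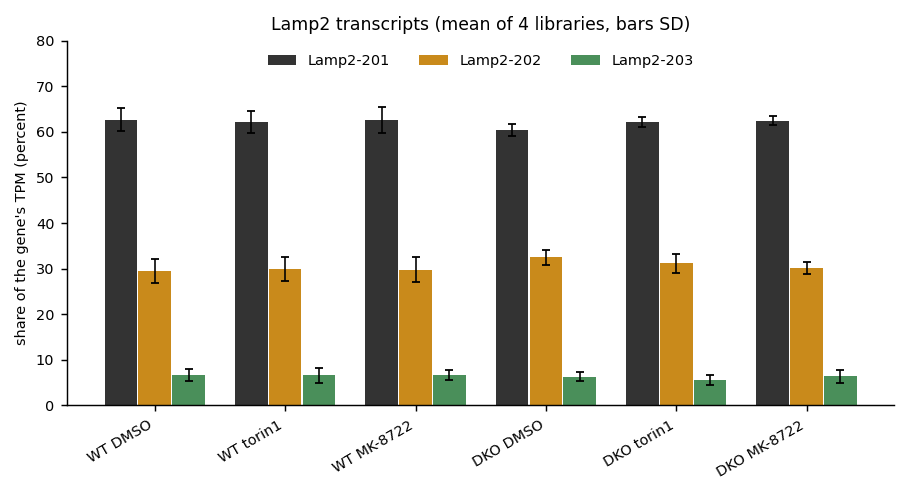
Share of the TPM of *Lamp2* (vertical axis, percent, starting at 0) taken by its 3 main transcripts in each of the 6 groups, with bars for the mean and error bars for the SD of 4 libraries. Lamp2-201 holds 60.4% to 62.7% and Lamp2-203 5.60% to 6.74% as group means.

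*Scarb2*, which encodes LIMP-2, the receptor that carries glucocerebrosidase to the lysosome (chr5:92441314-92506833, minus strand), stood at 33.6, 31.5, 34.7 and 48.1 CPM in WT with DMSO. It was 57.6, 59.3, 58.1 and 73.3 CPM with torin1 and 46.9, 46.6, 50.9 and 72.2 CPM with MK-8722 in WT. The top value of each group was that of passage 11, and the MK-8722 libraries overlapped those with DMSO only through the DMSO library of that passage. *Scarb2* rose 1.68-fold with torin1 (0.75 ± 0.13, adjusted p = 2.1e-05 by edgeR) and 1.46-fold with MK-8722 (0.55 ± 0.13, adjusted p = 0.00177 by edgeR). In DKO the libraries held 88.0, 86.3, 81.5 and 77.9 CPM under DMSO, 90.1, 89.0, 90.5 and 84.6 CPM under torin1 and 98.1, 99.8, 91.9 and 83.8 CPM under MK-8722, all above every WT library. DKO was 2.25-fold higher than WT with DMSO (1.17 ± 0.13, adjusted p = 3.17e-08 by edgeR), 1.43-fold higher with torin1 and 1.72-fold higher with MK-8722. Its log2 fold change in DKO was 0.09 (95% interval -0.17 to 0.34) with torin1 and 0.16 (-0.09 to 0.42) with MK-8722. The difference in response to torin1 was -0.66 ± 0.18 (adjusted p = 0.0126 by edgeR). That to MK-8722, -0.39 ± 0.18 (adjusted p = 0.254 by edgeR), was not called, but it was with passage as a block within each genotype (-0.38 ± 0.06, adjusted p = 0.000134 by edgeR).

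*Cd63*, a tetraspanin of late endosomes and exosomes (chr10:128900989-128912822, plus strand), stood at 324, 324, 317 and 343 CPM in WT with DMSO. The torin1 libraries of WT held 396, 379.5, 369.9 and 391 CPM and the MK-8722 libraries 442, 448, 470.2 and 486 CPM, and the 3 WT groups did not overlap. *Cd63* rose 1.41-fold with MK-8722 (0.50 ± 0.03, adjusted p = 9.5e-11 by edgeR). The 1.17-fold difference with torin1 (0.23 ± 0.03, adjusted p = 2.4e-06 by edgeR) missed the required fold change, and with scaling by library size alone it was called at 0.32 on the log2 scale. In DKO the values were 463, 455, 450.4 and 446 CPM under DMSO, 414, 398, 392.02 and 385 CPM under torin1 and 464, 467, 465 and 448 CPM under MK-8722. DKO was 1.39-fold higher than WT with DMSO (0.47 ± 0.03, adjusted p = 2.64e-11 by edgeR), and all its torin1 libraries lay below its DMSO libraries, with a log2 fold change of -0.19 ± 0.03 (adjusted p = 3.18e-05 by edgeR) that missed the required fold change. For *Cd63* the difference in response was -0.42 ± 0.05 (adjusted p = 1.05e-06 by edgeR) for torin1 and -0.47 ± 0.05 (adjusted p = 2.07e-07 by edgeR) for MK-8722.

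*Cd68*, a LAMP-related protein best known as a macrophage marker (chr11:69664213-69666153, minus strand), stood at 2.0, 2.24, 1.84 and 1.54 CPM in WT with DMSO, from 51 to 65 counts a library. It was 5.83, 6.41, 4.83 and 4.11 CPM with torin1 and 10.3, 14.3, 12.6 and 10.1 CPM with MK-8722 in WT, and the 3 groups did not overlap. The rise was 2.79-fold with torin1 (1.48 ± 0.20, adjusted p = 1.1e-06 by edgeR) and 6.22-fold with MK-8722 (2.64 ± 0.20, adjusted p = 5.32e-10 by edgeR). In WT, a list of 10 other macrophage markers had a summed level of 10.1 to 11.3 CPM in the DMSO libraries, 7.31 to 11.8 CPM in the torin1 libraries and 11.0 to 12 CPM in the MK-8722 libraries, which overlapped. In DKO the sums were 6.40 to 8.09, 8.66 to 10.4 and 6.51 to 8.00 CPM, with the torin1 libraries above all others. Only 2 of the 10 markers passed the filter on low counts. With torin1 in DKO, their log2 fold changes were 0.28 (called higher) and -0.76 (not called). With torin1 in WT they were -0.21 and -1.08, and 1 of these was called lower. Of the 10 markers, *Adgre1* and *Tyrobp* were at 0 in all 6 groups and *Lyz2* in DKO with DMSO and MK-8722. In DKO, *Cd68* stood at 4.05, 5.98, 4.30 and 4.32 CPM under DMSO, 6.90, 8.55, 4.74 and 5.66 CPM under torin1 and 7.75, 11.2, 8.29 and 8.46 CPM under MK-8722. The rise in DKO was 1.92-fold with MK-8722 (0.94 ± 0.18, adjusted p = 0.000783 by edgeR), with no overlap. With torin1 the DKO libraries overlapped those with DMSO (0.47 ± 0.18, adjusted p = 0.0329 by edgeR), and this call was lost when any of 5 single libraries was left out (DMSO replicates 1, 2 and 3, torin1 replicates 1 and 4), with values of 0.31 to 0.44. With passage as a block within each genotype, the DKO change with torin1 was called (0.46 ± 0.10, adjusted p = 0.000524 by edgeR). The responses of *Cd68* differed by -1.01 ± 0.27 (adjusted p = 0.0137 by edgeR) for torin1 and -1.70 ± 0.27 (adjusted p = 0.00015 by edgeR) for MK-8722. Between the genotypes, *Cd68* was 2.46-fold higher in DKO with DMSO (1.30 ± 0.20, adjusted p = 7.79e-06 by edgeR). With MK-8722 it was 1.32-fold lower in DKO (-0.40 ± 0.17, adjusted p = 0.0446 by edgeR), but the libraries overlapped and the call was lost without any of 7 single libraries (DKO MK-8722 replicates 2, 3 and 4, DKO torin1 replicate 4, WT DMSO replicate 4, WT MK-8722 replicates 1 and 3), at -0.40 to -0.31.

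*Npc1*, which exports cholesterol across the lysosomal membrane, stood at 41.1, 37.6, 34.6 and 36.3 CPM in WT with DMSO. It was 74.0, 77.4, 69.5 and 62.8 CPM with torin1 and 76.4, 79.4, 82.5 and 89.7 CPM with MK-8722 in WT, and all treated libraries lay above the DMSO libraries. *Npc1* rose 1.90-fold with torin1 (0.92 ± 0.06, adjusted p = 1.05e-11 by edgeR) and 2.19-fold with MK-8722 (1.13 ± 0.06, adjusted p = 2.04e-12 by edgeR). In DKO the libraries held 31.5, 33.5, 31.8 and 33.1 CPM under DMSO, 40.4, 41.4, 43.8 and 39.2 CPM under torin1 and 39.3, 39.1, 40.5 and 38.6 CPM under MK-8722. Both drugs raised *Npc1* in DKO without overlap, 1.27-fold with torin1 (0.34 ± 0.06, adjusted p = 4.25e-05 by edgeR) and 1.21-fold with MK-8722 (0.28 ± 0.06, adjusted p = 0.00237 by edgeR). The second of these calls lies close to the required fold change, and was lost without DKO DMSO replicate 2 or DKO MK-8722 replicate 3 (0.26 for each on the log2 scale). Between DKO and WT, the response of *Npc1* differed by -0.58 ± 0.09 (adjusted p = 4.66e-05 by edgeR) for torin1 and -0.86 ± 0.09 (adjusted p = 2.2e-07 by edgeR) for MK-8722. *Npc1* was 1.72-fold lower in DKO than in WT with torin1 and 2.08-fold lower with MK-8722. With DMSO all DKO libraries lay below all WT libraries, with a log2 fold change of -0.20 ± 0.06 (adjusted p = 0.00587 by edgeR) that missed the required fold change.

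*Npc2*, the soluble cholesterol carrier of the lysosomal lumen (chr12:84754562-84773152, minus strand), stood at 126, 128, 136 and 230.2 CPM in WT with DMSO. It was 199, 210.1, 215 and 342 CPM with torin1 and 169, 179, 189 and 285 CPM with MK-8722 in WT. The passage 11 culture stood well above the other 3 in each treatment. *Npc2* rose 1.56-fold with torin1 (0.64 ± 0.18, adjusted p = 0.00424 by edgeR) and was not called with MK-8722 (0.41 ± 0.18, adjusted p = 0.0963 by edgeR). Within each passage, the ratio to the DMSO culture was 1.49 to 1.64 with torin1 and 1.24 to 1.40 with MK-8722. With passage as a block within each genotype, the change with MK-8722 was called (0.42 ± 0.03, adjusted p = 2.51e-10 by edgeR), and it was also called without the WT passage 11 libraries (0.45 on the log2 scale). In DKO the libraries held 184, 178, 168 and 194 CPM under DMSO, 254, 253, 227 and 252 CPM under torin1 and 214, 206, 191 and 222 CPM under MK-8722. The torin1 libraries of DKO lay above the DMSO libraries, a 1.36-fold rise (0.44 ± 0.18, adjusted p = 0.0411 by edgeR), and the call was lost without any of 6 single libraries of these groups (DMSO replicates 2, 3 and 4, torin1 replicates 1, 2 and 4) with values of 0.40 to 0.45. With passage as a block within each genotype, this DKO rise with torin1 was called (0.44 ± 0.03, adjusted p = 1.67e-11 by edgeR). Within DKO passages, the ratio to DMSO was 1.29 to 1.42 with torin1 and 1.14 to 1.16 with MK-8722. The difference in response was not called for torin1 (-0.19, 95% interval -0.72 to 0.34) or MK-8722 (-0.20, -0.73 to 0.33). With passage as a block these had adjusted p of 0.000722 and 0.000678 by edgeR and missed the required fold change. DKO and WT were not called different in *Npc2* under any treatment, with log2 fold changes of 0.22 (95% interval -0.15 to 0.60) with DMSO, 0.03 (-0.35 to 0.40) with torin1 and 0.02 (-0.36 to 0.40) with MK-8722. Without the WT passage 11 libraries, the first was 0.44 and was called.

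*Gpnmb*, a transmembrane glycoprotein of lysosomes and melanosomes (chr6:49036546-49070929, plus strand), stood at 0.769, 1.05, 0.443 and 0.813 CPM in WT with DMSO, from 13 to 28 counts a library. It was 24.9, 27.0, 20.4 and 13.6 CPM with torin1 and 10.7, 14.7, 11.6 and 10.3 CPM with MK-8722 in WT, from 417 to 794 and 276 to 385 counts. All treated WT libraries lay far above the highest DMSO library. The rise was 27.9-fold with torin1 (4.80 ± 0.30, adjusted p = 4.9e-12 by edgeR) and 15.4-fold with MK-8722 (3.95 ± 0.30, adjusted p = 8.68e-10 by edgeR). A list of 6 melanocyte markers summed to 0 to 0.171 CPM over the libraries, with *Dct* and *Tyr* at 0 in all 6 groups. In DKO, *Gpnmb* stood at 2.39, 3.53, 2.57 and 1.54 CPM under DMSO, 4.65, 6.38, 3.52 and 3.05 CPM under torin1 and 3.47, 4.67, 2.94 and 2.73 CPM under MK-8722, and the groups overlapped. It rose 1.76-fold in DKO with torin1 (0.82 ± 0.27, adjusted p = 0.014 by edgeR), a call lost without DMSO replicate 1 (0.64) or torin1 replicate 1 (0.59). This rise was called with passage as a block within each genotype (0.81 ± 0.15, adjusted p = 9.22e-05 by edgeR). With MK-8722 *Gpnmb* was not called in DKO (0.47 ± 0.28, adjusted p = 0.257 by edgeR), but it was with passage as a block (0.46 ± 0.16, adjusted p = 0.0301 by edgeR). *Gpnmb* was 3.25-fold higher in DKO than in WT with DMSO (1.70 ± 0.34, adjusted p = 0.000149 by edgeR), 4.88-fold lower with torin1 and 3.42-fold lower with MK-8722. The responses of *Gpnmb* differed by -3.98 ± 0.41 (adjusted p = 4.22e-07 by edgeR) for torin1 and -3.47 ± 0.42 (adjusted p = 4.71e-06 by edgeR) for MK-8722.

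*Laptm4a* and *Laptm4b* encode related multispanning proteins of late endosomes and lysosomes. *Laptm4b* (chr15:34238028-34284302, plus strand) stood at 27.5, 27.5, 27.6 and 27.1 CPM in WT with DMSO. It was 36.2, 39.9, 37.3 and 35.5 CPM with torin1 and 38.0, 39.8, 40.4 and 40.5 CPM with MK-8722 in WT, all above the DMSO libraries. It rose 1.36-fold with torin1 (0.44 ± 0.05, adjusted p = 3.27e-08 by edgeR) and 1.45-fold with MK-8722 (0.53 ± 0.05, adjusted p = 1e-08 by edgeR). In DKO the libraries held 31.4, 31.5, 34.0 and 32.7 CPM under DMSO, 25.9, 26.6, 28.2 and 27.3 CPM under torin1 and 32.5, 35.4, 36 and 39.1 CPM under MK-8722. The torin1 libraries lay below the DMSO libraries in DKO and above them in WT, with a log2 fold change in DKO of -0.26 ± 0.05 (adjusted p = 5.74e-05 by edgeR) that just missed the required fold change. It was called without DKO DMSO replicate 2 or 4, DKO MK-8722 replicate 2 or DKO torin1 replicate 3, at -0.28 to -0.27. Between the genotypes, *Laptm4b* was 1.38-fold lower in DKO with torin1 (-0.46 ± 0.05, adjusted p = 1.17e-08 by edgeR), and its values of 0.24 ± 0.05 (adjusted p = 0.000123 by edgeR) with DMSO and -0.15 ± 0.05 (adjusted p = 0.00766 by edgeR) with MK-8722 missed the required fold change. The responses of *Laptm4b* differed by -0.70 ± 0.07 (adjusted p = 1.23e-07 by edgeR) for torin1 and -0.39 ± 0.07 (adjusted p = 0.000379 by edgeR) for MK-8722. *Laptm4a* (chr12:8921664-8938742, plus strand) was not called in any of the 11 comparisons. Its log2 fold changes ranged from -0.02 to 0.07, its lowest adjusted p was 0.355 by edgeR, and 0 comparisons had an unadjusted p under 0.05.

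**Figure D3:**
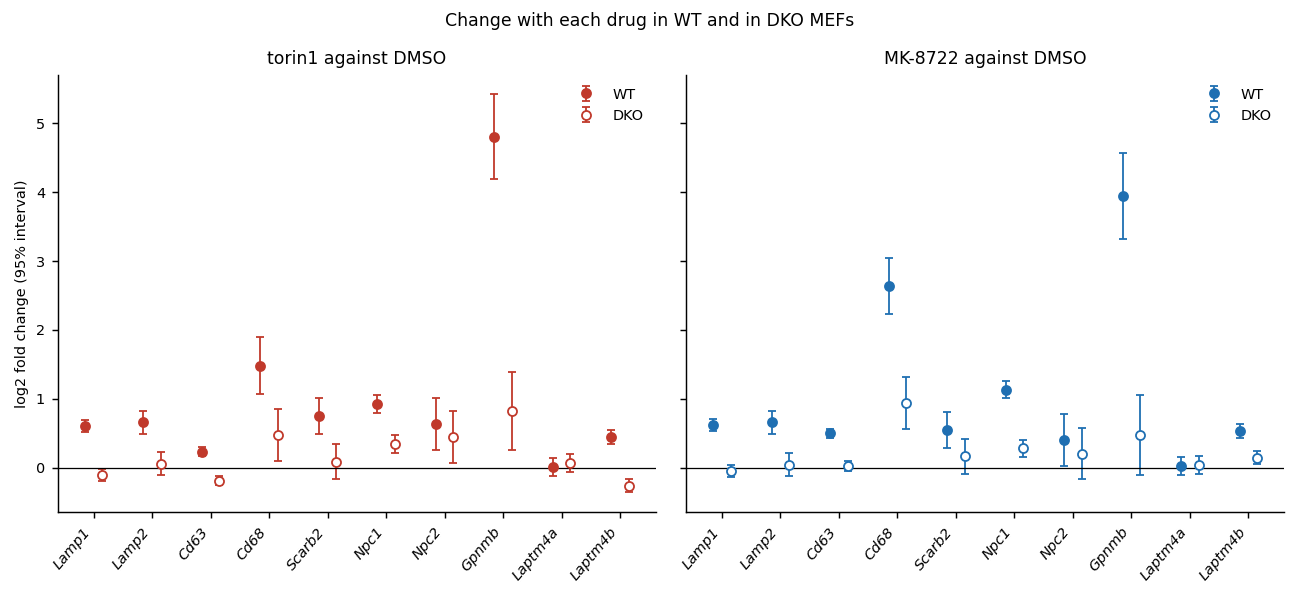
Log2 fold change of each gene (vertical axis) with torin1 (left) and MK-8722 (right) against DMSO, with filled points for WT, open points for DKO and bars for the 95% interval of the fit. *Lamp1* lies at 0.60 with torin1 in WT and at -0.11 in DKO, *Npc2* lies at 0.64 and 0.44, and *Gpnmb* has the largest WT value, 4.80 against 0.82 in DKO.

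Counted together, 8 of 10 genes were called higher and 0 lower with torin1 in WT, where 26.6% of the 15401 genes tested were called higher and 20.5% lower. With MK-8722 in WT, 8 were called higher and 0 lower, against 10.3% and 5.87% of all genes. The median log2 fold change of the 10 genes was 0.65 with torin1 and 0.58 with MK-8722, beside 0.05 and -0.01 over all genes tested. In DKO, *Cd68*, *Npc1*, *Npc2* and *Gpnmb* were called higher with torin1 and 0 of the 10 lower (all genes: 23% higher, 20.2% lower). *Cd68* and *Npc1* were called higher in DKO with MK-8722 and 0 lower (all genes: 5.47% higher, 3.21% lower). The medians of the 10 genes in DKO were 0.07 with torin1 and 0.15 with MK-8722. For the difference in response, 8 genes were called lower in DKO and 0 higher with torin1 (all genes: 6.33% lower, 4.68% higher), and 7 lower and 0 higher with MK-8722 (all genes: 4.08% lower, 1.42% higher). *Npc2* and *Laptm4a* were in neither count, and *Scarb2* was not in that for MK-8722. The torin1 and MK-8722 comparisons share the DMSO libraries of each genotype.

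Between the genotypes, the 10 genes took different patterns. With DMSO, 5 genes were called higher in DKO and 0 lower (all genes: 23.5% higher, 24.6% lower). With torin1, *Lamp2* and *Scarb2* were called higher in DKO and *Lamp1*, *Npc1*, *Gpnmb* and *Laptm4b* lower (all genes: 24% higher, 27.8% lower). With MK-8722, *Lamp2* and *Scarb2* were again called higher, and *Lamp1*, *Cd68*, *Npc1* and *Gpnmb* lower (all genes: 23.3% higher, 25.4% lower). Under either drug, the count called higher lies near the share of all genes. *Lamp2* and *Scarb2* stood above WT under all 3 treatments, *Lamp1* and *Npc1* were called lower under both drugs, and *Gpnmb* was above WT with DMSO and below it with either drug.

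**Figure D4:**
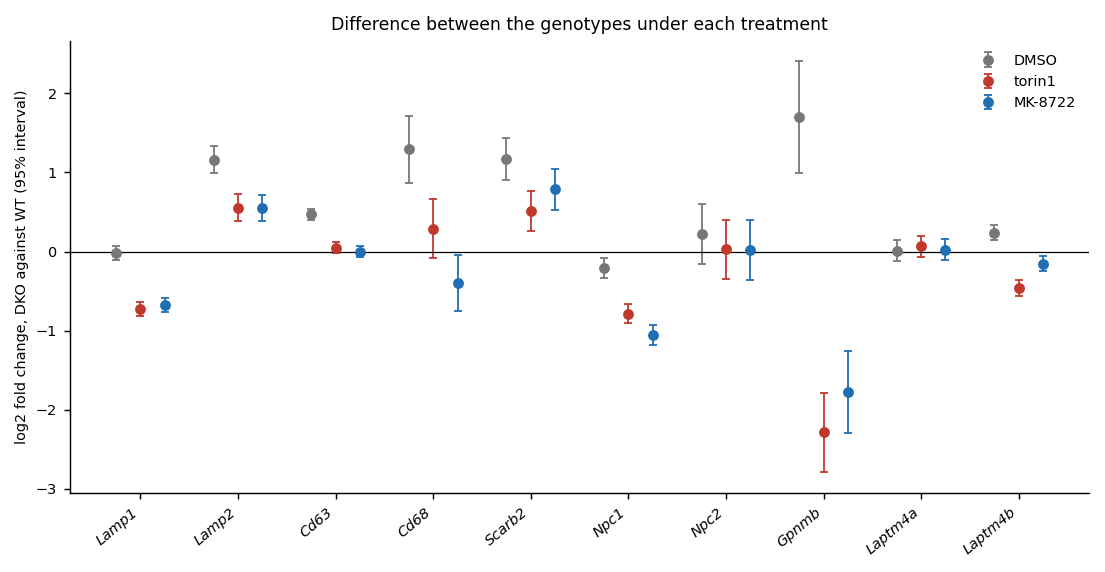
Log2 fold change of DKO against WT for each gene (vertical axis) under DMSO, torin1 and MK-8722, with bars for the 95% interval of the fit. *Lamp2* and *Scarb2* lie above 0 under all 3 treatments, while *Gpnmb* moves from 1.70 with DMSO to -2.29 with torin1 and -1.77 with MK-8722.

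The drugs were set against each other within each genotype, with no claim that the doses match in strength. In WT, 1 gene was called higher with torin1 than with MK-8722 and 2 lower (all genes: 24.9% higher, 20% lower). The higher gene was *Gpnmb*, 1.81-fold (0.86 ± 0.22, adjusted p = 0.00212 by edgeR), although its lowest torin1 library (13.6 CPM) lay below its highest MK-8722 library (14.7 CPM). The lower genes were *Cd68*, 2.23-fold (-1.16 ± 0.18, adjusted p = 6.03e-06 by edgeR), and *Cd63*, 1.2-fold (-0.27 ± 0.03, adjusted p = 4.07e-07 by edgeR). The call of *Cd63* lies at the required fold change and was lost without WT MK-8722 replicate 2 or 3 or WT torin1 replicate 2 or 4, at -0.26 to -0.25. *Lamp1* and *Lamp2* were not called, with 95% intervals of the log2 difference of -0.10 to 0.08 and -0.16 to 0.17. In DKO, 0 genes were called higher with torin1 than with MK-8722, and *Cd68* (1.38-fold) and *Laptm4b* (1.32-fold) were called lower (all genes: 21.1% higher, 19.3% lower). The call of *Cd68* was lost without DKO MK-8722 replicate 1 or DKO torin1 replicate 2 or 3, at -0.40 to -0.34.

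In WT, the cultures at passage 11 held more of 4 of the genes than the other cultures of their group. Besides *Npc2*, *Scarb2* and *Lamp2*, this was *Laptm4a*, which stood at 166 CPM at passage 11 against 129.6 to 139.6 CPM at the others with DMSO, at 166 against 135 to 137 CPM with torin1 and at 155 against 140.1 to 147 CPM with MK-8722. *Gpnmb* and *Cd68* went the other way, with passage 11 lowest at 13.6 and 4.11 CPM with torin1 and at 10.3 and 10.1 CPM with MK-8722, and for *Cd68* also at 1.54 CPM with DMSO. In DKO with DMSO, *Npc2* was at 194 CPM at passage 11 against 168 to 184 CPM at the others, and *Scarb2* at 77.9 CPM against 81.5 to 88.0 CPM. Within each passage, *Lamp1*, *Lamp2*, *Cd63*, *Cd68*, *Scarb2*, *Npc1*, *Npc2*, *Gpnmb* and *Laptm4b* were each higher with either drug than with DMSO in 4 of 4 WT passages. Both drugs share the DMSO cultures, and the share of all genes higher in 4 of 4 passages is not given here. What else differed between the passages was not tested.

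**Figure D5:**
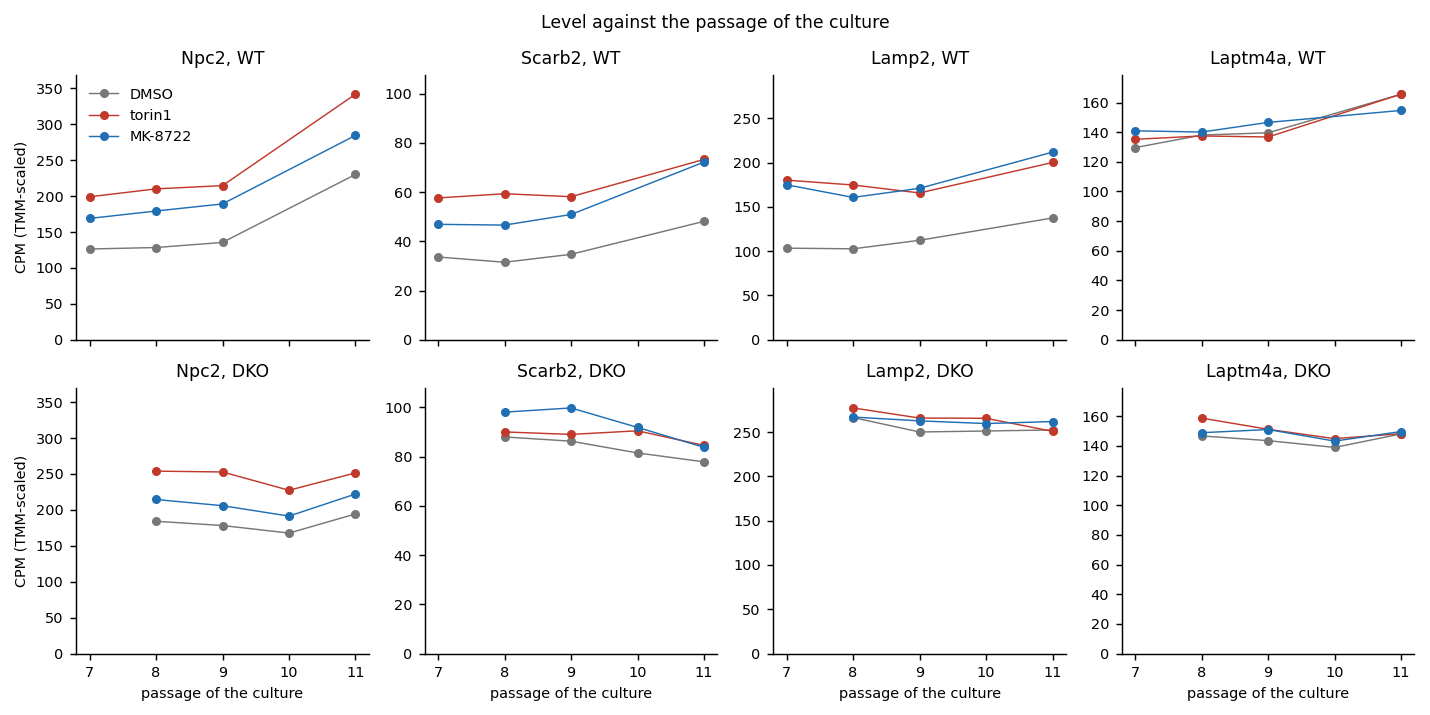
Level of *Npc2*, *Scarb2*, *Lamp2* and *Laptm4a* (vertical axes, CPM scaled with TMM, starting at 0) against the passage of the culture in WT (top) and DKO (bottom), with a line for each treatment and 1 library per point. In WT, *Npc2* with DMSO stands at 126 to 136 CPM at passages 7 to 9 and at 230.2 CPM at passage 11, with the drug-treated cultures above it at every passage.

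Related genes and the rest of the lysosomal membrane were counted from lists written by hand. The shares of all genes called are 26.6% higher and 20.5% lower with torin1 and 10.3% and 5.87% with MK-8722 in WT, 23% and 20.2% with torin1 and 5.47% and 3.21% with MK-8722 in DKO, and for a lower response in DKO 6.33% with torin1 and 4.08% with MK-8722. Of 28 other lysosomal membrane proteins, 20 rose and 2 fell with torin1 in WT (median log2 fold change 0.59), and 17 rose and 0 fell with MK-8722 (median 0.52). *Ctns*, the cystine exporter, rose most among them, 3.33-fold and 3.07-fold, and *Mcoln1*, a lysosomal calcium channel, rose 2.44-fold with MK-8722. In DKO, 9 rose and 4 fell with torin1 and 4 rose and 0 fell with MK-8722, and the torin1 counts lie near the shares of all genes. The response was called lower than in WT for 12 and 14 of them. Of 12 genes of lysosomal cholesterol handling, 8 rose and 1 fell with torin1 in WT, and 5 rose and 1 fell with MK-8722. The count of 5 was 3 without WT MK-8722 replicate 2. *Abca1*, the plasma membrane cholesterol exporter, rose 3.19-fold with torin1 and 1.82-fold with MK-8722, and *Gpr155*, a lysosomal cholesterol sensor, fell by 0.51 and 0.60 on the log2 scale. In DKO, 7 of the 12 rose and 1 fell with torin1 and 2 rose and 1 fell with MK-8722. Of 16 genes of sterol synthesis and uptake, 15 were tested, and 0 rose and 12 fell with torin1 in WT, whereas 9 rose and 0 fell with MK-8722. *Idi1*, an isomerase of isoprenoid synthesis, fell by 1.91 on the log2 scale with torin1, and *Insig1*, a regulator of sterol synthesis, rose 3.09-fold with MK-8722. In DKO, 13 of the 15 fell with torin1 and 10 rose with MK-8722, and 0 of the 15 were called different from WT in their response in either direction. With passage as a block within each genotype, 2 were called higher and 1 lower in their response to torin1 and 1 lower in that to MK-8722. Of 14 relatives of the 10 genes, such as other tetraspanins and the *Gpnmb* homologue *Pmel*, 7 were tested, of which 1 rose (*Pmel*, 2.24-fold) and 3 fell with torin1 in WT, and 1 rose (*Cd9*, 1.23-fold) with MK-8722.

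The genes whose pattern over the 24 libraries was most like the mean of the 10 were sought by Pearson's correlation of log2 CPM, as a description, since the libraries share 6 groups. They were *Ctsd* (r = 0.942), *Fnip1* (0.933), *Psap* (0.932), *Tceal9* (0.913) and *Bri3* (0.907). For single genes, *Lamp1* was most like *Atp6v0d1* (r = 0.973), a subunit of the lysosomal proton pump, and *Npc1* most like *Dvl2* (0.974). *Lamp2* and *Scarb2* were each other's nearest gene (r = 0.978), and both were higher in DKO and at WT passage 11. *Gpnmb* was most like *Tpp1* (r = 0.954), *Cd63* like *Fam50a* (0.949), *Npc2* like *Itm2b* (0.948), *Cd68* like *Golga4* (0.941), *Laptm4b* like *Tom1* (0.941) and *Laptm4a* like *B2m* (0.872). Among the 10 genes, *Lamp1* and *Npc1* followed that pair (r = 0.928), while *Lamp1* and *Scarb2* had r = -0.326.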

How the data were processed

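The authors aligned mRNA reads of 24 libraries of MEFs to GRCm38 with STAR, and deposited salmon's estimated counts per gene and per transcript, with TPM per transcript. The estimated counts carry no scaling for depth or length, and were rounded to integers. TPM as deposited served for levels between genes and for transcript shares. Of 55487 genes, 15401 passed filterByExpr at a minimum count of 10. A model with a mean for each of the 6 groups was fitted by edgeR 4.0.16 (quasi-likelihood test in its older form, TMM), with 11 contrasts and Benjamini-Hochberg adjustment over all genes tested. A call needed both an adjusted p under 0.05 and a 1.2-fold change. The biological coefficient of variation was 10.7% with 18 residual degrees of freedom. Replicates differed beyond sampling noise (chi-square per degree of freedom 3.80 to 39.2). They were cultures of 1 line per genotype at separate passages, so p-values measure the spread between these cultures. Intervals are at 95%.

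The fits were also run on simulated data, whose outcome is not given here. The genes named are the 10 genes, *Tfeb*, *Tfe3*, list members called with the largest or smallest change in WT, of which some are given, and the most correlated genes among those averaging at least 2 log2 CPM. The 10 genes and the lists were chosen with earlier results of these data known. RefSeq windows, matched by symbol, were examined for 8 of the 10 genes. Alternatives were other filters, scalings, tests (DESeq2 1.42.0 included) and thresholds, a transcript length offset, replicate or passage blocks, only the groups compared, and libraries left out. The authors report removing a batch effect with limma. No batch term was fitted here, since the labels give a single batch.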

Additional observations from a re-analysis of the deposited data

Results flagged for a closer look

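In 15 of 20 tests of the 10 genes, the response to a drug differed between the genotypes. The term tested was the interaction of the edgeR fit, log2 response in DKO minus that in WT. Of all genes tested, 6.33% were called lower and 4.68% higher for torin1, and 4.08% lower and 1.42% higher for MK-8722. The tests for torin1 and MK-8722 share the DMSO libraries. For torin1 the values were -0.71 for *Lamp1*, -0.61 for *Lamp2*, -0.42 for *Cd63*, -1.01 for *Cd68*, -0.66 for *Scarb2*, -0.58 for *Npc1*, -3.98 for *Gpnmb* and -0.70 for *Laptm4b*. For MK-8722 they were -0.66 for *Lamp1*, -0.61 for *Lamp2*, -0.47 for *Cd63*, -1.70 for *Cd68*, -0.86 for *Npc1*, -3.47 for *Gpnmb* and -0.39 for *Laptm4b*.

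In 9 of 60 groups of 4 libraries, 1 library stood apart from the other 3 by Dixon's criterion, which chance gives in about 5% of groups. In WT, 5 of these were the highest library, at passage 11. They were *Npc2* with DMSO (230.2 CPM) and with torin1 (342 CPM), *Scarb2* with torin1 (73.3 CPM) and with MK-8722 (72.2 CPM), and *Laptm4a* with torin1 (166 CPM). In DKO they were *Lamp2* with DMSO at passage 8 (266 CPM) and *Cd68* with DMSO at passage 9 (5.98 CPM), both highest, and *Cd63* with MK-8722 at passage 11 (448 CPM) and *Npc2* with torin1 at passage 10 (227 CPM), both lowest.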

How the results depend on the processing

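Of the calls of the 10 genes, all 16 for the drugs in WT kept their direction and side of the threshold under every alternative except that of *Scarb2* with MK-8722 in glmTreat, a test against the 1.2-fold change itself. Elsewhere the counts moved. In DKO with torin1, genes called higher numbered 1 in glmTreat, 2 with a transcript length offset and 1 without the DKO passage 8 libraries, and 1 to 4 with single libraries left out (1 or 2 without DMSO replicates 1, 2 or 3 or torin1 replicates 1 or 4, and 3 without DMSO replicate 4 or torin1 replicate 2). Genes called lower there numbered 1 with no filter, 3 by adjusted p alone and 0 to 1 with single libraries left out. In DKO with MK-8722, 1 was called higher in glmTreat and without the DKO passage 8 libraries, and 1 to 2 with single libraries left out. Between genotypes with DMSO, 1 gene (*Npc1*) was called lower with library size alone, by adjusted p alone and with the length offset, and *Npc2* was called higher (0.44) without the WT passage 11 libraries. For torin1 against MK-8722 in WT, 1 was called lower with 10 counts in every library, library size alone and glmTreat, and with single libraries left out 1 to 3 were higher (3 without MK-8722 replicate 2) and 1 to 2 lower. In DKO, 1 was called lower in glmTreat and 1 to 2 with single libraries left out, and 1 (*Gpnmb*) was called higher with passage as a block. The differences in response of *Cd68* and *Scarb2* to torin1 and of *Laptm4b* to MK-8722 were lost in glmTreat, the last also with the length offset (-0.29), and that of *Scarb2* to MK-8722 was called (-0.36) without the WT passage 11 libraries and (-0.54) without WT DMSO replicate 2. The genotype difference of *Cd68* with torin1 was called (0.42) without DKO torin1 replicate 3. Of the list counts, cholesterol handling genes higher with MK-8722 in WT numbered 3 with the length offset and without WT MK-8722 replicate 2, and 2 in glmTreat, and sterol genes higher with MK-8722 in DKO numbered 3 in glmTreat. Other lysosomal membrane genes lower with torin1 in WT numbered 1 in glmTreat, with library size alone, with the length offset and without WT DMSO replicate 4. In DKO they numbered 2 lower with torin1 and 1 higher with MK-8722 in glmTreat, and 7 higher with MK-8722 by adjusted p alone. The cause was not tested.

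Values near 0 changed sign. On the log2 scale, *Lamp1* between genotypes with DMSO was 0.00101 with no filter and -0.0460 to 0.0153 with single libraries left out. *Cd63* between genotypes with MK-8722 was 0.00770 with no filter, 0.000421 with only the groups compared, 0.000825 with the length offset, 0.00448 without the WT passage 11 libraries and -0.0304 to 0.00934 with single libraries left out. With library size alone, which shifted the median of all genes by -0.13 between genotypes with torin1, *Cd63* there was -0.0782 and *Npc2* -0.0980, and *Npc2* with MK-8722 was -0.0534. With 10 counts in every library *Npc2* took values of -0.00490 under torin1 and -0.00135 under MK-8722, and with single libraries left out -0.0422 to 0.259 and -0.0707 to 0.205. The difference in response of *Npc2* was -0.44 to 0.0625 for torin1 and -0.458 to 0.0102 for MK-8722 with single libraries left out.

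Same-numbered replicates did not deviate together (correlations of -0.41 to 0.66 in WT, with 4 of 12 pairs over 0.1), so the numbers do not pair the libraries. The replicate block left 8 genes called higher with torin1 in WT and 4 in DKO, and changed no count of the 10 genes by over 1.5 times. Cultures of 1 passage correlated by 0.02 to 0.66 in WT (10 of 12 pairs over 0.1) and 0.05 to 0.24 in DKO (7 of 12). The main fit leaves passage out, and a passage block within genotype gives no value between genotypes. With that block, *Npc2* in WT and *Gpnmb* in DKO were also called higher with MK-8722. The response of *Scarb2* to MK-8722 was then also called lower in DKO. At 13 to 65 counts in WT with DMSO, *Gpnmb* and *Cd68* have the least certain folds.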
